A study of Arabidopsis thaliana with 4 samples.

Results

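The genes described here are 10 genes of the circadian clock of Arabidopsis thaliana, read in RNA of the funiculus, the stalk that joins a seed to the fruit wall. They were picked by locus from a table of 37051 loci: the morning genes LHY (AT1G01060), CCA1 (AT2G46830), RVE1 (AT5G17300), RVE2 (AT5G37260), RVE8 (AT3G09600), PRR9 (AT2G46790) and PRR7 (AT5G02810), and the later genes PRR5 (AT5G24470), TOC1 (AT5G61380) and GI (AT1G22770). All 10 had counts in every library and were among the 18092 genes that passed the filter on low counts. The set was proposed with the counts of these libraries known, RVE2 having stood out between the genotypes, so differences between the genotypes in these genes are descriptions: no p-value is given for any of them, and counts past a threshold stand beside the share of all genes and support nothing. Funiculi of flowers at stage 17, after fertilisation, came from wild-type plants of the ecotype Columbia and from seedstick (stk) plants, which are mutated in the MADS-box gene STK. Both genotypes grew at 22 °C with 16 h of light and 8 h of darkness a day, and no other treatment, age or allele is given in the labels. Each genotype had 2 libraries, replicate 1 and replicate 2, each from a pool of 100 funiculi, so a value is an average over many seeds and all cell types of the stalk. The labels give no hour of collection.

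The plant clock is a loop of repressors and activators that take turns through the day. LHY and CCA1 are MYB-related repressors that peak around dawn, and PRR9, PRR7, PRR5 and TOC1 are pseudo-response regulators that follow one another from morning to dusk and in turn repress LHY and CCA1. RVE8, a relative of CCA1, activates afternoon and evening genes together with LNK coactivators, and GI, a large plant-specific protein that peaks late in the day, stabilises the photoreceptor F-box protein ZTL. Because each transcript has its own time of day, the balance of morning and later transcripts differs between samples taken at different phases.

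The promoters of these genes carry short motifs that belong to that loop. They are shown because, within this set, the G-box divided the morning from the later genes and the evening element is bound by members. Windows of 300 bases, from 250 bases upstream of the annotated gene start to 50 bases after it, were read by locus from RefSeq's TAIR10.1 assembly and searched on both strands. The G-box, CACGTG, a site of light-related factors, was present in 7 of 7 morning genes and 0 of 3 later genes, against 7.68% of 27443 protein-coding promoters. Outside the set that division did not hold: the evening genes LUX and BOA carried a G-box, 193 and 87 bases upstream, and RVE4, a relative of RVE8, had none. In 6 of the 7 morning genes of the set the G-box lay upstream of the start, and in RVE8 its first base was base 12 of the gene. In each of those 6 genes a copy was followed by TC on one of its strands (CACGTGTC, held by 2.45% of all promoters and always overlapping the G-box), a pattern noticed after the windows had been read. The upstream copies are printed 5′ to 3′ along the gene's own strand, with the G-box in capitals and up to 30 bases on each side. For PRR9, which has a copy 244 and a copy 172 bases upstream, the nearer is shown.
LHY (chr1:37916-37981, minus strand): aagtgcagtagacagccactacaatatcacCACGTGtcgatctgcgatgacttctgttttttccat
CCA1 (chr2:19245368-19245433, plus strand): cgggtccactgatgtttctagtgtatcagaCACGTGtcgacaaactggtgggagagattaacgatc
RVE1 (chr5:5693068-5693133, minus strand): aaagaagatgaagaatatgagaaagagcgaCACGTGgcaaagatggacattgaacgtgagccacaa
RVE2 (chr5:14753216-14753281, minus strand): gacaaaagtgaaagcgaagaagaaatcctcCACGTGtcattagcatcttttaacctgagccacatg
PRR9 (chr2:19232405-19232470, plus strand): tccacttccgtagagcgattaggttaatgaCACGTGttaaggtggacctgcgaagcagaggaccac
PRR7 (chr5:642196-642261, minus strand): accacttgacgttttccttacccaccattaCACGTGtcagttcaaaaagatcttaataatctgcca

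The evening element, AAAATATCT, a site bound by CCA1, LHY and RVE8, was found in 2 of the 3 later genes and in 1 of the 7 morning genes, against 2.82% of all promoters. It lay upstream of the start in PRR5 and TOC1, both on the strand opposite to the gene, so it reads AGATATTTT in the windows below, where it is in capitals. In PRR9 its first base was base 27 of the gene. The related CCA1-binding site, AAAAATCT, was held by 7.88% of all promoters, and among the 10 genes by RVE2, 244 bases upstream, and PRR5, 198 bases upstream and beside the evening element.
PRR5 (chr5:8358695-8358763, minus strand): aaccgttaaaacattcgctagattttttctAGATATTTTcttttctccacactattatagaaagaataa
TOC1 (chr5:24674782-24674850, plus strand): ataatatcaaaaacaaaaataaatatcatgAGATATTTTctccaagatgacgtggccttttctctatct
No match to these motifs was found in the window of GI, which says only that these letters are not in it. A match is a description of the sequence and does not show that a factor bound it here.

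The count table gave 4033589 to 12099218 reads per library, with the smallest total in stk replicate 1, and 3 counts correspond to 0.744 CPM (counts per 1000000 counts of a library) there and to 0.248 CPM in stk replicate 2, the largest. STK was read at 373 and 554 CPM in the wild-type pools and at 237 and 325 CPM in stk; the labels do not name the lesion, so counts summed over the locus are no test of the genotype. stk replicate 1 stood apart: of 11342 genes that reached 10 CPM in each other library, 161 (1.42%) had no count in it, against at most 0.315% for any other library measured the same way. Of all genes tested, 36.5% were lowest and 28.2% highest in stk replicate 1. Fold changes of LHY, RVE8, TOC1 and GI, the balance and the medians of the members are also given without that library. In RNA of whole funiculi, fewer cells of a type and less RNA per cell cannot be told apart.

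LHY and CCA1, the repressors at dawn, differed widely between libraries of the same genotype. LHY stood at 562 CPM in wild-type replicate 1, 183 CPM in wild-type replicate 2, 12.4 CPM in stk replicate 1 and 234 in stk replicate 2. These CPM values rest on 3133, 2000, 48 and 2857 counts in the same order. The highest and lowest library were thus 45.4-fold apart, and the stk libraries lay on either side of wild-type replicate 2. Among 3593 genes that reached 50 CPM in each other library, LHY was 14.8-fold below its lowest other library in stk replicate 1, and 2 of those genes, LHY included, fell that far. That rank, and the one of RVE8 below, is a description, since the set was proposed with these counts known. CCA1, the close relative of LHY, stood at 497, 101, 87.0 and 138 CPM in the same library order. CCA1 was therefore also highest in wild-type replicate 1 and lowest in stk replicate 1, but it was there just 1.16-fold below its next library.

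The share of LHY among the reads of LHY and CCA1 makes that contrast within each library, where scaling plays no part. It was 53.1% in wild-type replicate 1 (95% Clopper-Pearson interval 51.8 to 54.3), 64.5% in wild-type replicate 2 (62.8 to 66.2) and 63.0% in stk replicate 2 (61.6 to 64.4). In stk replicate 1 it was 12.5% (9.34 to 16.2). These intervals cover counting error only. LHY was the scarcer member of the pair in stk replicate 1 and the more abundant in the other 3 libraries by reads, with no allowance for the different lengths of the transcripts.

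RVE8, the evening-gene activator whose own transcript peaks near dawn, resembled LHY. It stood at 207 CPM in wild-type replicate 1, 87.4 CPM in wild-type replicate 2, 9.81 CPM in stk replicate 1 and 77.9 in stk replicate 2. In stk replicate 1 it was 7.94-fold below its lowest other library, a gap reached by 6 of the 3593 genes, RVE8 and LHY included. RVE1, a MYB-related factor that joins the clock to auxin synthesis and, like RVE2, is known to promote seed dormancy, differed from LHY and RVE8. It stood at 123 CPM in wild-type replicate 1 and at 21.6, 16.5 and 16.7 CPM in wild-type replicate 2, stk replicate 1 and stk replicate 2. A single library, wild-type replicate 1, was high for RVE1, and the other 3 were close together. CCA1, at 497 CPM there and 87.0 to 138 CPM elsewhere, was likewise high in that library alone.

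RVE2, like RVE1, RVE8 and PRR5, was lower in both stk libraries than in both wild-type libraries, a pattern of 16.6% of all genes tested. RVE2 stood at 132 and 105 CPM in the wild-type pools and at 28.9 and 16.0 CPM in stk, from 738, 1151, 112 and 195 counts. On the log2(CPM + 0.5) scale, its replicate 2 minus replicate 1 was -0.33 in wild type and -0.83 in stk. For RVE1 these differences were -2.49 and 0.02, and for RVE8 -1.24 and 2.93. The wild-type mean was 119 ± 19.1 CPM and the stk mean 22.5 ± 9.13 CPM (SD, n = 2 each). Between wild-type replicate 2 and stk replicate 2, RVE2 differed by -2.68 on the log2(CPM + 0.5) scale. Between the same libraries LHY, CCA1, RVE8, PRR9 and PRR7 differed by -0.17 to 0.45, RVE1 by -0.36, GI by -0.40, TOC1 by -0.88 and the scarce PRR5 by -4.02. Other clock genes differed there too, JMJ30 by -2.59, CAT3 by 2.38, GRP7 by -2.33, AT4G33980 by -2.21, PIF5 by 2.09 and BOA by -1.99. RVE2 was thus low in stk replicate 2, a library in which LHY and CCA1 were not low.

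**Figure D1:**
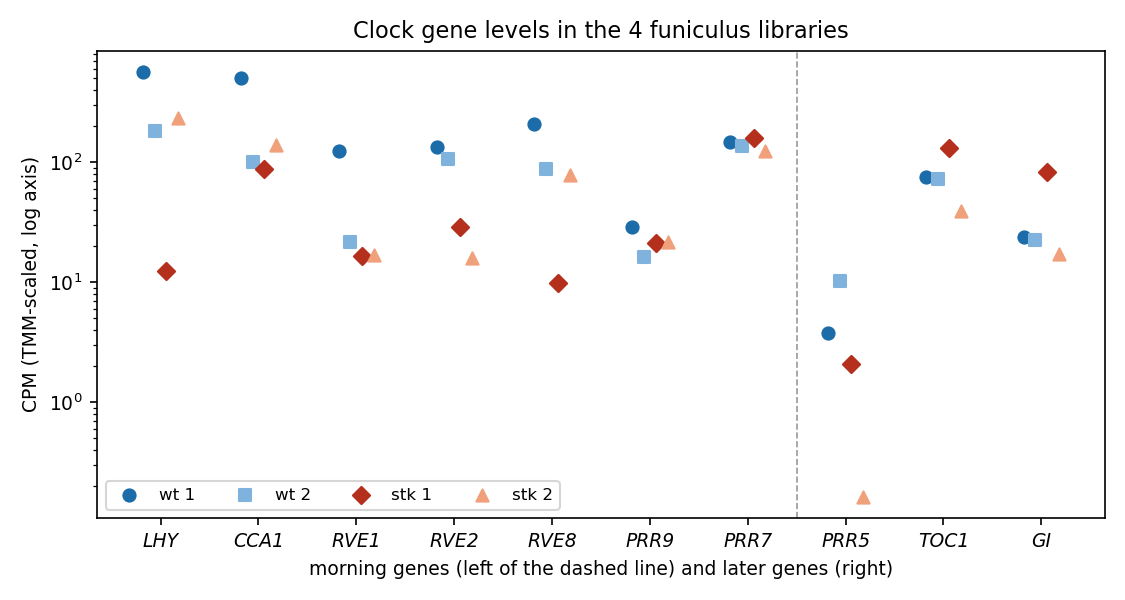
Levels of the 10 clock genes in each library, as CPM scaled by TMM (trimmed mean of M-values) on a log axis, with 1 point per library and no averaging. LHY and RVE8 reach 12.4 and 9.81 CPM in stk replicate 1, and GI and TOC1 are highest there. Both stk points of RVE1, RVE2, RVE8 and PRR5 lie below both wild-type points.

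The pseudo-response regulators of the morning varied little. PRR9, which follows LHY and CCA1 in the early morning, stood at 28.7, 16.3, 21.2 and 21.7 CPM in wild-type replicates 1 and 2 and stk replicates 1 and 2. PRR7, which follows PRR9, stood at 146, 135, 158 and 124 CPM. The highest and lowest libraries differed 1.76-fold for PRR9 and 1.27-fold for PRR7, against 5.72-fold for CCA1. PRR7 was highest in stk replicate 1, the library in which LHY was lowest.

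Among the later genes, TOC1 and GI were highest where LHY was lowest. TOC1, a repressor of LHY and CCA1 at dusk, stood at 75.2 and 72.8 CPM in the wild-type pools, 131 CPM in stk replicate 1 and 39.3 in stk replicate 2. GI stood at 23.9 and 22.6 CPM in the wild-type pools, 83.4 CPM in stk replicate 1 and 17.1 in stk replicate 2. For each gene the wild-type libraries were within 0.10 of one another on the log2(CPM + 0.5) scale, and the stk libraries lay above and below them. PRR5, the regulator of the afternoon, was scarce, with 21, 112, 8 and 2 counts, or 3.77, 10.3, 2.07 and 0.164 CPM. Its value in stk replicate 2 lies under the floor of 3 counts, so its fold change, plotted with the others, rests on almost no reads in that library.

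Per kilobase of annotated exon (TAIR10.1), the mean levels over the 4 libraries ran from CCA1 at 75.5 CPM per kb, through LHY at 72.5 and RVE2 at 72.1, then PRR7 at 43.5, RVE8 at 40.8, TOC1 at 28.4, RVE1 at 22.1, PRR9 at 10.3 and GI at 8.54, to PRR5 at 2.42. The ranges over libraries of all 9 neighbouring pairs in that order overlapped, so no step of it exceeded the spread between libraries. LHY ranged from 3.62 to 164 CPM per kb and PRR7 from 38.3 to 48.8.

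**Figure D2:**
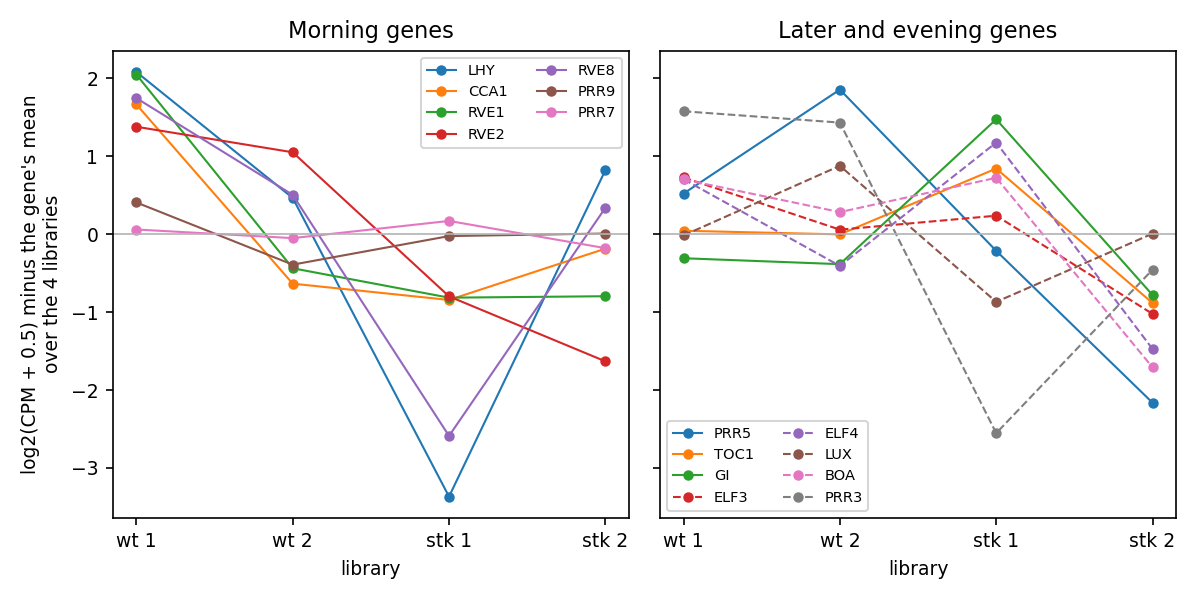
Each gene's log2(CPM + 0.5) minus its own mean over the 4 libraries, for the morning genes (left) and for the later genes with the evening genes ELF3, ELF4, LUX, BOA and PRR3 (right, dashed); lines join the values of 1 gene and imply no order of the libraries. LHY and RVE8 dip in stk replicate 1, where GI, TOC1 and ELF4 are highest, and PRR7 is flat.

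The balance of morning and later genes asks whether the 4 libraries show the same clock phase. It was taken as the mean log2(CPM + 0.5) of the 7 morning genes minus that of the 3 later genes, a difference of levels within a library. In wild type it was 3.10 for replicate 1 and 1.42 for replicate 2. In stk it was -0.04 for replicate 1 and 2.88 for replicate 2. The balance therefore differed within each genotype, by -1.67 from replicate 1 to replicate 2 in wild type and by 2.93 in stk, and the replicates moved in opposite directions. With the median over members in place of the mean, these differences were -0.46 in wild type and 4.11 in stk. stk minus wild type it was -0.84 over all libraries (-2.26 with medians over members), 0.62 without stk replicate 1, 0.00 without wild-type replicate 1, -1.67 when wild-type replicate 2 was left out and -2.30 without stk replicate 2. With PRR5 left out, an alternative chosen after its low counts had been seen, the balance was 1.98, 0.78, -1.83 and 1.11 in the same library order, so stk replicate 1 was again lowest and wild-type replicate 1 highest, and the difference between the genotypes was -1.74.

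Pairs of genes mostly had their lowest share in the same library, while 8 of 21 gave the full library order of the balance. Of the 21 pairs of a morning and a later gene, the morning gene's share of the pair's reads was lowest in stk replicate 1 in 16 and in wild-type replicate 2 in 5, and all 5 were pairs with PRR5. It was highest in stk replicate 2 in 11 pairs and in wild-type replicate 1 in 10. The share of LHY among reads of LHY and TOC1 was 88.2% (95% Clopper-Pearson interval 87.1 to 89.2) and 71.6% (69.8 to 73.2) in replicates 1 and 2 of wild type. It was 8.63% (6.43 to 11.3) and 85.6% (84.4 to 86.8) in those of stk. TOC1 outnumbered LHY by reads in stk replicate 1 alone. For CCA1 and TOC1 the share of CCA1 was 86.9% (85.6 to 88.0), 58.0% (55.8 to 60.3), 39.9% (36.6 to 43.3) and 77.8% (76.0 to 79.5) in the same order. The pairs share their genes and are not independent.

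**Figure D3:**
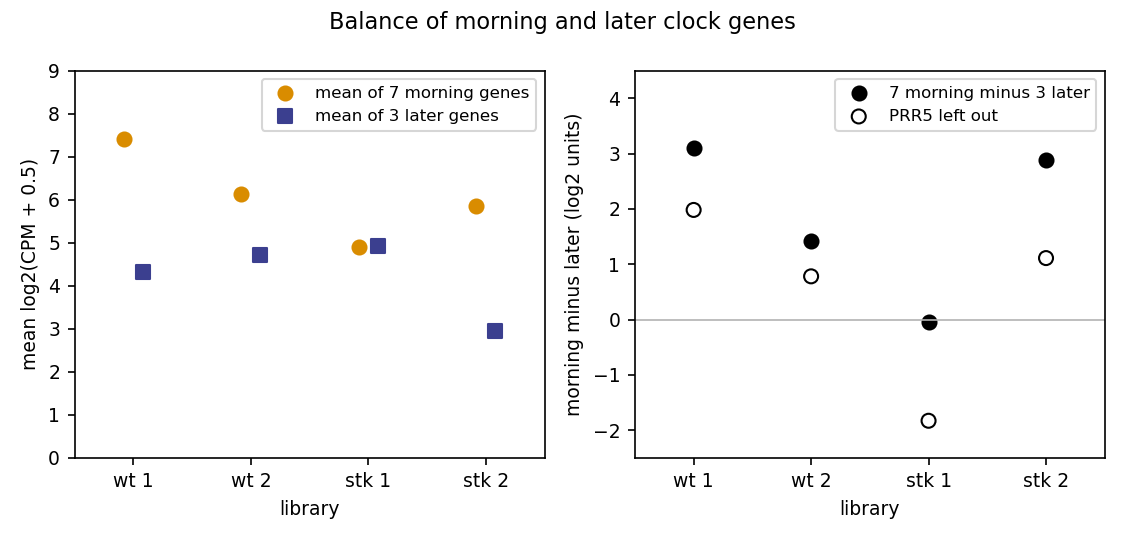
Left, mean log2(CPM + 0.5) of the 7 morning genes and of the 3 later genes in each library; right, their difference, with all members (filled) and without PRR5 (open). The difference lies between 1.42 and 3.10 in 3 libraries and at -0.04 in stk replicate 1.

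Between the genotypes, the 7 morning genes had a median log2 fold change (stk minus wild type, edgeR) of -1.59 and the 3 later genes one of 0.20, against -0.08 over all genes tested. Of the 10 genes, 0 passed edgeR's quasi-likelihood test, where 0.00553% of all genes did, and RVE2 passed DESeq2 (0.956% of genes) and limma-voom (0.205%). With edgeR, RVE1, RVE2 and RVE8 passed when no filter on low counts was used, where 1.17% of genes did, and RVE2 with a replicate block, where 0.934% did. At an unadjusted edgeR p under 0.05 there were 2, both lower in stk, where 3.36% of all genes lay (1.14% lower and 2.22% higher in stk). The fold change was negative for 8 of the 10 and for 54.2% of all genes tested. The groups did not overlap for RVE1, RVE2, RVE8 and PRR5, each lower in stk, a pattern of 16.6% of all genes tested, and 0 of the 10 lay wholly higher in stk, as 15.9% did. Since the genes were chosen with this contrast known, nothing is read from these counts.

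Which library was left out set most of these fold changes. That of LHY was -1.59 ± 1.11 (SE), and it was -0.65 without stk replicate 1, -0.54 when wild-type replicate 1 was left out and -4.91 without stk replicate 2. That of RVE8 was -1.74 ± 0.88, and -0.90, -0.96 and -3.91 without the same libraries. PRR9, at -0.07 ± 0.67, ranged from -0.41 to 0.41. CCA1, at -1.41 ± 0.71, moved to 0.18 without wild-type replicate 1, and RVE1, at -2.12 ± 0.79, to -0.36. The fold change of GI was 1.10 ± 0.74 over all libraries and -0.42 without stk replicate 1, and that of TOC1 was 0.20 ± 0.58 and -0.89. RVE2, at -2.41 ± 0.48, stayed between -2.87 and -2.05 whichever library was left out. RVE2 had stood out between the genotypes in these libraries when the set was proposed, so its narrow range is a description. The median of the morning genes was -0.36 when wild-type replicate 1 was left out and -0.90 without stk replicate 1, and that of the later genes -0.89 without stk replicate 1 and 0.82 without stk replicate 2.

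**Figure D4:**
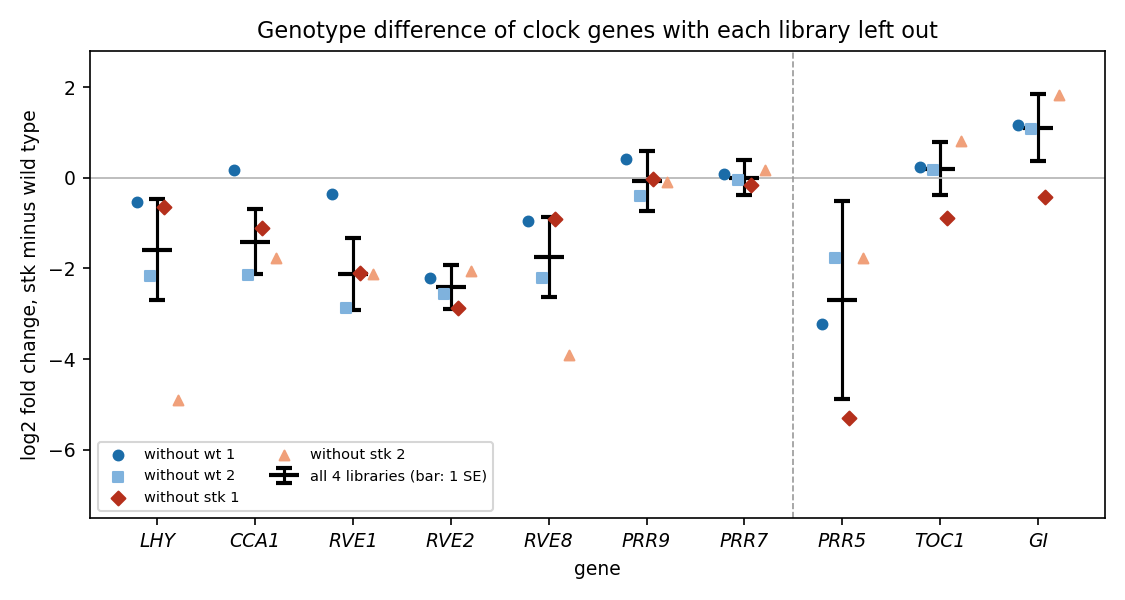
Log2 fold change of each clock gene, stk minus wild type, from edgeR; black bars give the estimate from all 4 libraries with 1 SE and coloured points the estimate with 1 library left out. RVE2, which had stood out in this contrast when the set was proposed, keeps between -2.87 and -2.05. CCA1, TOC1 and GI change sign when wild-type replicate 1 (CCA1) or stk replicate 1 (TOC1, GI) is left out. PRR9 and PRR7, near 0, also change sign. The estimates of PRR5 rest on 2 to 112 counts per library.

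Genes that work beside these 10 were followed in 4 lists of 43 loci in all: evening genes, relatives of RVE8 with their LNK coactivators, regulators of clock proteins, and outputs. Of these, 40 were tested, 14 with a positive and 26 with a negative log2 fold change, and their median was -0.31, against -0.08 over all genes. None of the 40 passed edgeR, and none had an unadjusted edgeR p under 0.05. DESeq2 and limma-voom called 0 as well. The median was 0.05 without wild-type replicate 1, -0.08 without stk replicate 2 and -0.38 without stk replicate 1. CAT3 was the gene with the lowest p among the outputs and passed edgeR without wild-type replicate 1 (adjusted p = 0.00155) and with a replicate block (log2 fold change 1.98, adjusted p = 0.0122); over all alternatives its adjusted p ran from 0.00155 to 1.

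The 4 LNK genes followed the library order of LHY and CCA1: highest in wild-type replicate 1, then stk replicate 2, wild-type replicate 2 and lowest in stk replicate 1. LNK2 stood at 715, 425, 261 and 536 CPM in wild-type replicates 1 and 2 and stk replicates 1 and 2, LNK3 at 260, 163, 113 and 234 CPM. LNK1 ranged from 63.5 to 135 CPM, and its reads may include those of a gene on the other strand. LNK4 ranged from 37.9 to 99.4 CPM (edgeR unadjusted p = 0.219). RVE4, a relative of RVE8 that shares its activating role, had the same order at 198, 87.8, 83.1 and 98.8 CPM and was not low in stk replicate 1 as RVE8 was. In all, LHY and 10 more of the 50 tested clock genes had this order, which 6.21% of all genes tested showed. The related loci AT4G01280 and AT5G52660, annotated as homeodomain-like proteins, varied less, from 26.6 to 42.0 and from 15.5 to 18.3 CPM. RVE7, another relative, was highest in stk, at 27.4 and 16.6 CPM against 12.9 and 4.12 CPM in the wild-type pools (log2 fold change 1.37 ± 0.95, or 0.77 to 2.43 with 1 wild-type library left out and 0.98 without stk replicate 1, edgeR unadjusted p = 0.191), and ASG4 was read at 0 to 1.97 CPM.

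Of the 5 evening genes, ELF4 and BOA had the order of TOC1 and GI, with stk replicate 1 highest and stk replicate 2 lowest. ELF4, a subunit of the evening complex that represses PRR9 and other genes at night, stood at 13.6 and 6.04 CPM in the wild-type pools, 19.1 CPM in stk replicate 1 and 2.63 in stk replicate 2. BOA, a MYB-like relative of LUX, stood at 24.4, 18.1, 24.8 and 4.18 CPM. Counting TOC1, GI and the morning gene PRR7 with ELF4 and BOA, 5 of the 50 tested clock genes had this order, which was shown by 3.74% of all genes tested. ELF3, the scaffold of the evening complex, stood at 33.2, 20.7, 23.5 and 9.52 CPM (edgeR unadjusted p = 0.367). LUX, its DNA-binding subunit, lay apart, at 8.79, 16.8, 4.65 and 8.94 CPM, with wild-type replicate 2 highest. PRR3, which protects TOC1 from ZTL, stood at 8.26 and 7.42 CPM in the wild-type pools, had no count in stk replicate 1, where 3 counts are 0.744 CPM, and stood at 1.64 CPM in stk replicate 2 (edgeR unadjusted p = 0.200).

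Among regulators of clock proteins, the spread between libraries differed from gene to gene. ZTL, the F-box protein that targets TOC1, stood at 49.5, 38.6, 48.3 and 29.5 CPM, and TIC, a regulator of LHY levels, at 246, 122, 175 and 108 CPM. The casein kinase subunit genes CKB3 and CKB4 ranged from 74.3 to 134 and from 54.9 to 75.6 CPM. CKB3 had a log2 fold change of -0.55 ± 0.40, or -0.29 without stk replicate 1 (edgeR unadjusted p = 0.214). FKF1, the relative of ZTL that peaks in the late afternoon, was highest in stk replicate 1, at 13.4 CPM against 1.01 to 2.69 CPM elsewhere, and it overlaps MAP70-1, which had more reads. AT4G33980 was likewise highest there, at 17.0 CPM against 1.31 to 7.88 CPM. JMJ30, a histone demethylase of the evening, stood at 10.6 and 8.42 CPM in the wild-type pools and at 0 and 0.985 CPM in stk (edgeR unadjusted p = 0.0966, the lowest of the list). TCP22, a factor that activates CCA1, stood at 44.5, 14.8, 0.258 and 18.8 CPM, the third value resting on 1 count. TCP21, which represses CCA1, ranged from 50.2 to 67.8 CPM.

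**Figure D5:**
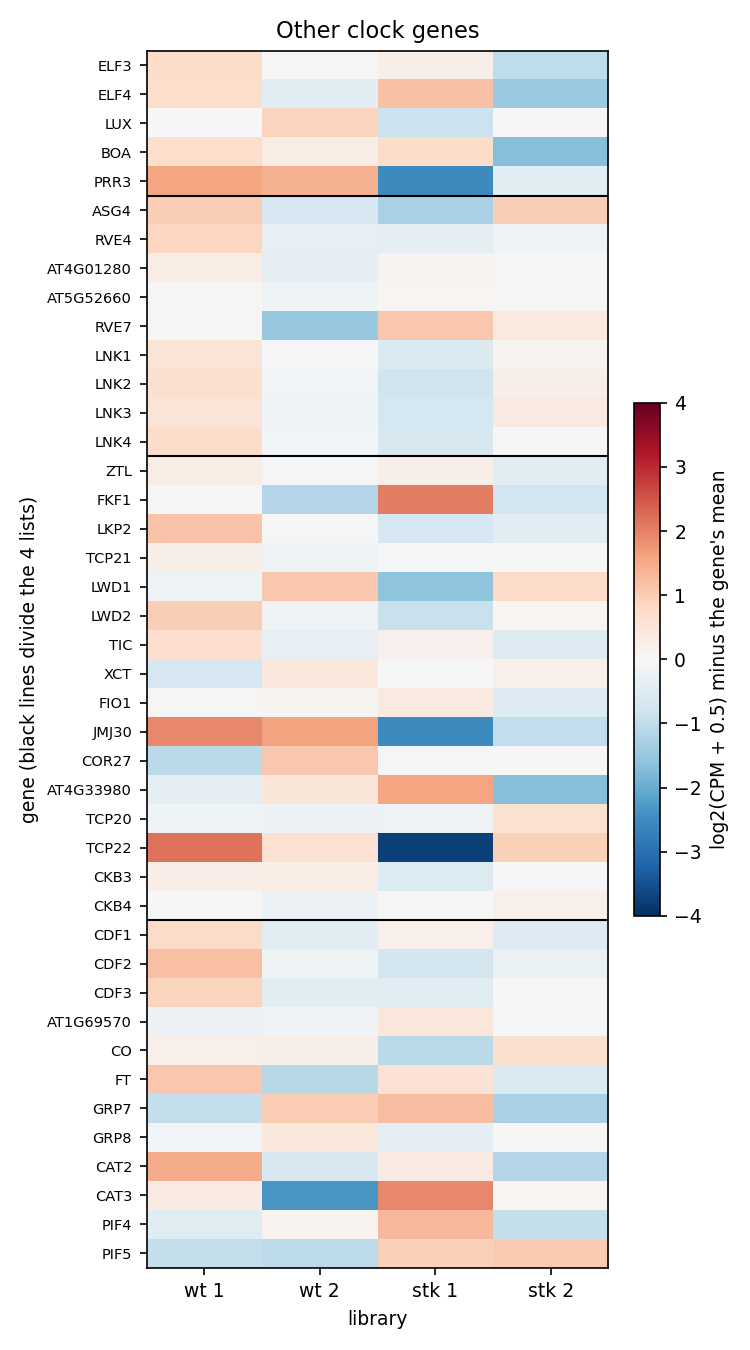
Log2(CPM + 0.5) of each other clock gene minus its mean over the 4 libraries, in the lists of evening genes, RVE and LNK genes, regulators and outputs from top to bottom; TSF, which had no count, is not shown. The 4 LNK genes are lowest in stk replicate 1, where FKF1 and CAT3 are highest.

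Outputs of the clock did not share a single pattern. FT, the mobile flowering signal made in phloem companion cells, was the most abundant of the list, at 2818 CPM in wild-type replicate 1, 615 CPM in wild-type replicate 2, 1989 CPM in stk replicate 1 and 895 in stk replicate 2. It was higher in replicate 1 than in replicate 2 of both genotypes. The companion cell genes SUC2 and AHA3 had the same library order, at 836, 151, 623 and 278 CPM and at 845, 202, 516 and 269 CPM, and the 5 phloem markers summed to 447 to 1834 CPM in the wild-type pools and 733 to 1471 CPM in stk, none of them at 0. APL ranged from 47.6 to 113 CPM. The other two, SEOa and SEOb, sieve element genes, did not follow FT: SEOb stood at 2.69, 4.95, 70.7 and 48.2 CPM and passed DESeq2 (adjusted p = 2.09e-05) but not edgeR (adjusted p = 0.329). SEOa stood at 37.1, 28.4, 174 and 90.2 CPM (DESeq2 adjusted p = 0.0489, edgeR adjusted p = 0.635). Their part in the level of FT was not tested. CO, which activates FT, stood at 0 to 1.15 CPM, and TSF, the relative of FT, had no count, which allows at most 0.248 to 0.744 CPM.

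The catalase genes CAT2 and CAT3 have opposite daily peaks and were set side by side. CAT3, which peaks in the evening, stood at 588 and 93.0 CPM in the wild-type pools and at 1760 and 487 CPM in stk (log2 fold change 1.72 ± 0.90, edgeR unadjusted p = 0.0938). Its fold change was 0.54 without stk replicate 1 and 3.61 when wild-type replicate 1 was left out. CAT2, which peaks in the morning, stood at 80.0, 18.0, 35.9 and 12.2 CPM. The share of CAT2 among the reads of both was 12% (95% Clopper-Pearson interval 10.9 to 13.1) and 16.2% (14.2 to 18.4) in wild type and 2.0% (1.68 to 2.35) and 2.45% (2.07 to 2.87) in stk. The stk libraries lay close to each other in the ratio of this 1 pair and below both wild-type libraries, unlike the balance of LHY and TOC1. CAT2 overlaps AT4G35080 on the other strand, read at 19.6, 43.8, 39.9 and 21.5 CPM of library totals in the same library order. Reads of CAT2 cannot be told from those of that gene, a limit that the intervals do not cover. GRP7, an RNA-binding protein that peaks in the evening, stood at 53.3, 210, 241 and 41.4 CPM, high in wild-type replicate 2 and stk replicate 1, the libraries with the lower balance of morning genes. GRP8, its relative, did not follow it, at 265, 390, 220 and 299 CPM, lowest in stk replicate 1. The CDF factors, which repress CO and FT in the morning, were highest in wild-type replicate 1 for CDF1, CDF2 and CDF3, at 171, 44.0 and 99.6 CPM, and AT1G69570, a Dof-type factor, ranged from 5.74 to 9.55 CPM. CDF2 had an edgeR unadjusted p of 0.162 and a log2 fold change of -1.18 ± 0.76, which was -0.95 without stk replicate 1 and -0.25 when wild-type replicate 1 was left out. PIF4 and PIF5, growth-promoting bHLH factors, stood at 1.56 to 9.29 and 1.01 to 5.91 CPM.

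Over the whole genome, genes with an evening element in the window of 300 bases were highest in stk replicate 1 in 34.2% of 523 tested genes, against 28.2% of the 17567 tested genes with a window. They were lowest in stk replicate 2 in 20.3%, against 13.2%. Among the tested clock genes with the element, 7 of 12 were highest in stk replicate 1: TOC1, BOA, RVE7, FKF1, AT4G33980, GRP7 and CAT3. For the G-box the share highest in wild-type replicate 1 was 29.3% of 1619 genes, against 27.5%, and 12 of the 17 clock genes with it were highest there. With or without a motif, 6 of the 10 members were highest in wild-type replicate 1 and 3 in stk replicate 1. Of the 43 other clock genes, 22 (a count that includes TSF, with no reads) were highest in wild-type replicate 1 and 11 in stk replicate 1. The members were chosen with these counts known. These are descriptions of the libraries, and a match of letters does not show binding.

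The genes whose pattern was nearest to that of LHY were mostly at or near 0 in stk replicate 1. Likeness was measured as the Euclidean distance of centred log2(CPM + 0.5) over the 4 libraries, among 13561 other genes that averaged 10 CPM or more, and 47 genes lay within a distance of 1. The nearest were AT2G23330 (0.212), AT5G19840 (0.381), AT5G48530 (0.395), AT1G30320 (0.399) and TCP22 (AT1G72010, 0.415), each with 0 or 0.258 CPM in stk replicate 1. For GI, 543 genes lay within 1, and the nearest were SFH3 (0.136), AT3G02320 (0.146), AT4G27480 (0.152), AT1G01448 (0.191) and CSLD1 (0.233). SFH3 stood at 30.3, 27.6, 98.1 and 19.0 CPM, the shape of GI at a slightly higher level. With 4 libraries, many genes share a shape.

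Markers of cell types were not evenly read across the libraries. The 5 xylem markers together gave 214 and 64.1 CPM in the wild-type pools and 1250 and 149 CPM in stk, highest in stk replicate 1, the library in which LHY and RVE8 were low, and none was at 0 in any library. CESA4, CESA7 and CESA8, cellulose synthase genes of secondary walls, made up most of that sum in stk replicate 1, at 593, 305 and 196 CPM, while XCP1 was lowest there, at 4.39 CPM against 7.97 to 18.3 CPM elsewhere. XCP1, CESA4 and CESA7 overlap counted genes on the other strand, whose reads cannot be told from theirs. CESA4 also overlaps AT5G44020 on its own strand, read at 11.8 and 14.5 CPM in the wild-type pools and at 88.3 and 89.6 CPM in stk. The 5 markers of green tissue together gave 7290 and 3259 CPM in the wild-type pools and 5276 and 5361 CPM in stk, none at 0. The 12 markers of embryo and endosperm together gave 246 and 4.30 CPM in the wild-type pools and 127 and 5.74 CPM in stk, higher in replicate 1 of each genotype, with 4 to 8 of the 12 at 0 in a library and ABI3 at 0 in all. In wild-type replicate 1 most of that sum was CRC, SESA3 and CRA1, at 94.9, 74.3 and 48.6 CPM. The sum does not stand for every marker: AGL62 had no count in either replicate 1 library and 2.20 and 4.02 CPM in replicate 2 of wild type and stk. ZOU, at 0.366 CPM, and FUS3, at 0.0916 CPM, were read in wild-type replicate 2 alone. Of the 4 seed coat markers, TT16 had no count, 3 with TT16 included were at 0 in stk replicate 1, and the sum ranged from 43.4 to 78.5 CPM in the wild-type pools and from 84.4 to 96.0 CPM in stk. Most of that sum was MUM4, at 32.3 and 74.2 CPM in the wild-type pools and 96.0 and 77.3 CPM in stk. BAN did not follow it, at 10.05, 3.66, 0 and 6.73 CPM in the same library order, nor did TT12, at 1.08, 0.641, 0 and 0.410 CPM. Of the genes that mark the funiculus, STK was read in every library as given above, and HEC3 stood at 29.3 and 9.61 CPM in the wild-type pools and at 2.84 and 1.40 CPM in stk. The part of these markers in the levels of clock genes was not tested. The hour of collection, which the labels do not give, and the genotype cannot be told apart from the differences between single libraries.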

How the data were processed

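Messenger RNA of 4 pools of 100 funiculi was turned into libraries with an unstranded TruSeq kit, per the labels' protocols. The authors deposited unnormalized read counts per locus. The submitters' processing notes name featureCounts 1.6.3, STAR 2.7.0, Trimmomatic 0.38 and DESeq2 1.38.3, with no role stated. Genome build, annotation and the treatment of multi-mapping reads were not given in the sources used here. RefSeq's TAIR10.1 gene table held all 37051 loci and was used for names, exon lengths and promoters.

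Counts were tested with edgeR 4.0.16 (quasi-likelihood, TMM, filterByExpr, genotype alone, Benjamini-Hochberg rate 0.05) in R 4.3.3. Standard errors (SE) of fold changes came from its F statistic. DESeq2 1.42.0, on all loci with a count, limma-voom (limma 3.58.1), other scalings and filters, a replicate block and each library left out were alternatives. CPM values of genes use TMM-scaled totals (factors 0.961 to 1.07), and floors use library totals. Totals ranged from 4033589 to 12099218 counts, and floors and intervals cover counting error only.

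The members and lists were chosen with earlier results of these data known. The text names every member, and from each of the 4 lists of other clock genes at least the 2 genes with the highest mean CPM and the 2 with the lowest edgeR p. It also names the 5 genes nearest to LHY and to GI. Reads of LNK1, LNK2, LNK3, FKF1, CAT2, AT4G01280, CO, ELF3, BOA, STK and several markers cannot be told from those of a counted gene annotated across them on the other strand. Of the members, RVE1 alone has such a neighbour, which had no count. On the same strand, ASG4, LNK4, LWD2, PHYE and CESA4 overlap a counted gene.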

Additional observations from a re-analysis of the deposited data

How the results depend on the processing

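The single gene called by edgeR over the whole table was matched by 1 call with DESeq2 size factors and with upper-quartile scaling. The count of genes called was 275 without a filter on low counts, 0 with edgeR over genes averaging 5 CPM or more (567 of these at an unadjusted p under 0.05), 172 with DESeq2, 37 with limma-voom and 169 with a replicate block, and it ranged from 5 to 198 with 1 library left out; the cause was not tested. Other clock genes called numbered 1 (CAT3) with the replicate block and 0 to 1 with a library left out. With a library left out, the median log2 fold change ranged from -2.17 to -0.36 for the morning members, from -0.89 to 0.82 for the later members and from -0.44 to 0.05 for the other clock genes, and the difference in balance ranged from -2.30 to 0.62. The median of the later members was -0.22 with limma-voom, -0.05 with the replicate block and 0.65 over genes averaging 5 CPM or more, which leaves out PRR5. The difference in balance was -2.26 with medians over members in place of means, -0.67 without RVE2, and -0.62 and -1.08 with pseudocounts of 0.1 and 2. The replicate numbers come from the labels, which do not say that they mark a shared day, and differences between replicates correlated at 0.248 across genes between the genotypes. PRR5, PRR3, JMJ30 and TCP22 had few or no counts in at least 1 library; for the last 3 in stk replicate 1 the cause was not tested.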

Other observations

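Photoreceptors stand upstream of the clock, and genes that respond to light were read beside them. Of 10 photoreceptor genes tested, 5 had a positive and 5 a negative log2 fold change (stk minus wild type), with a median of -0.03 that was 0.34 with wild-type replicate 1 left out and -0.19 without stk replicate 1, and 0 passed edgeR, 0 had an unadjusted edgeR p under 0.05, and DESeq2 and limma-voom called 0. PHYE, a phytochrome, stood at 130, 101, 112 and 87.8 CPM in wild-type replicates 1 and 2 and stk replicates 1 and 2, and CRY1, a blue-light receptor, at 96.2, 57.6, 136 and 79.0 CPM. PHYD had no count in stk replicate 1 and 8.78 to 17.6 CPM elsewhere, and PHOT1 was read in the replicate 2 libraries alone, at 1.92 and 5.33 CPM.

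Light-response genes were lowest in stk replicate 1 for 8 of 10, a position held by 36.5% of all genes tested. Their median log2 fold change was -0.82, with 7 negative, and it was -0.37 without stk replicate 1 and -1.47 without stk replicate 2. ELIP1, an early light-induced protein of the chloroplast, stood at 167 and 390 CPM in the wild-type pools and at 66.8 and 84.2 CPM in stk; its log2 fold change, -1.88 ± 0.51, did not pass edgeR (adjusted p = 0.826), DESeq2 (adjusted p = 0.055) or limma-voom (adjusted p = 0.162). It was -1.70 without stk replicate 1 and -1.14 with wild-type replicate 2 left out, and it passed edgeR with no filter on low counts (adjusted p = 0.0162), with the replicate block (0.0364) and without wild-type replicate 1 (0.00853). Over all its alternatives the adjusted p ran from 0.00853 to 1. PIL1, a bHLH gene of shade responses, stood at 59.8, 73.5, 12.1 and 45.2 CPM, and HYH, a bZIP relative of HY5, at 17.6, 16.2, 0 and 6.40 CPM. BBX24, a B-box factor of light signalling, was highest in stk replicate 2, at 145 CPM against 87.8 to 97.7 CPM elsewhere.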
